A study of Drosophila melanogaster with 35 samples.

Results

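The nuclear genes of the mitochondrial respiratory chain were followed in the fat body of adult female Drosophila melanogaster, complex by complex. They were taken from the fat body count table by symbol: every row whose FlyBase identifier maps to a name beginning ND- (complex I), SdhA to SdhD (complex II), UQCR (complex III), COX4 to COX8 (complex IV) or ATPsyn (complex V, the ATP synthase). The rule found 78 genes among 14649 rows, of which 14537 carry a symbol. Of these, 63 are core subunits, namely 34 of complex I, 4 of complex II, 6 of complex III, 8 of complex IV and 11 of complex V. The other 15 are L-type paralogues, copies whose symbols end in L and many of which are known for expression in the testis; they are described apart. All 63 core subunits and 4 of the 15 L-type genes passed the filter on low counts and were among the 9819 genes tested.

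Poly(A) RNA was sequenced from 17 fat body libraries of flies aged 30 days in 4 groups. All flies carry S106, a GeneSwitch driver known to act in adult fat body and gut, which drives a UAS transgene only in the presence of the steroid RU486. The S106>UASfoxo genotype carries in addition a UAS copy of foxo, the forkhead transcription factor that insulin signalling restrains. The switch groups (4 S106 and 4 S106>UASfoxo libraries) received RU486 at 200 µM over 21 days and plain food over the 7 days after, and the control groups (5 S106 and 4 S106>UASfoxo libraries) are labelled as not induced. RU486 was thus out of the food for the last 7 days, and the comparison asks what remains of a past induction. The flies had mated and were kept apart from males. The labels do not say that the libraries of a group came from separate cultures of flies, so each p-value reflects the variation among the sequenced libraries, which may be technical.

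The respiratory chain sits in the inner mitochondrial membrane. Complexes I and II pass electrons from NADH and succinate to ubiquinone, complex III hands them to cytochrome c, complex IV gives them to oxygen, and complex V uses the proton gradient that results to make ATP. Complex II is also succinate dehydrogenase, an enzyme of the tricarboxylic acid (TCA) cycle. Most subunits are encoded in the nucleus, and a small set in the core of complexes I, III, IV and V comes from mitochondrial DNA.

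The libraries held 6708078 to 27527703 counts, and the 63 core subunits took 0.896% to 1.54% of them. Expression is given in CPM, read counts scaled to a common library total with TMM factors. Fat body markers summed to between 26357 and 148427 CPM in every library, so the labelled tissue was present throughout. Ovary and eggshell markers summed to 1009 CPM or more in 8 libraries and to at most 332 CPM in the other 9. The 8 are S106 control replicates 1 and 5 and replicates 1 and 4 of each other group. S106>UASfoxo control replicate 4 also had the lowest fat body sum of all. Foxo itself, whose reads may come from the gene or the transgene, came to 93.3, 72.5, 177 and 78.2 CPM in the S106>UASfoxo control libraries and to 157, 160, 240 and 94.9 CPM in the switch libraries, and these groups overlap (log2 fold change 0.63 ± 0.35 SE, edgeR adjusted p 0.457).

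Per kilobase of exon, the ATP synthase and cytochrome c oxidase transcripts stood above those of the other complexes. The median over core subunits of the mean CPM per kilobase was 292 for complex IV and 258 for complex V, against 94.7 for complex III, 76.8 for complex I and 65.4 for complex II. A pair of complex V genes led all core subunits on this scale. ATPsynC, which forms the membrane ring that turns as protons pass, stood at 1035 CPM per kilobase, and ATPsynbeta, the catalytic subunit, at 943 CPM per kilobase.

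Within each other complex the range was also wide. In complex IV it ran from 472 CPM per kilobase for COX5A to 140 for COX7C, both structural subunits that surround the mitochondrially encoded core. In complex III it ran from 215 for UQCR-14 to 22.1 for UQCR-11. In complex II the membrane anchor SdhC was highest at 94.3 CPM per kilobase and the flavoprotein SdhA, which oxidises succinate, lowest at 25.7.

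Complex I ranged from ND-MLRQ at 361 CPM per kilobase to ND-B8 at 2.52, with ND-AGGG next from below at 9.39. Among the redox subunits of complex I, which carry flavin or iron-sulphur clusters, ND-51 stood at 107, ND-23 at 99.6, ND-20 at 92.6, ND-24 at 64.2 and ND-75 at 35.6 CPM per kilobase. In complex V the lowest was ATPsyndelta at 42.9 CPM per kilobase. Several rows are uncertain because their exons overlap another gene: ND-MNLL shares all of its exons with CG45089 and has identical counts, and UQCR-14 lies wholly antisense to CG32576.

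**Figure D1:**
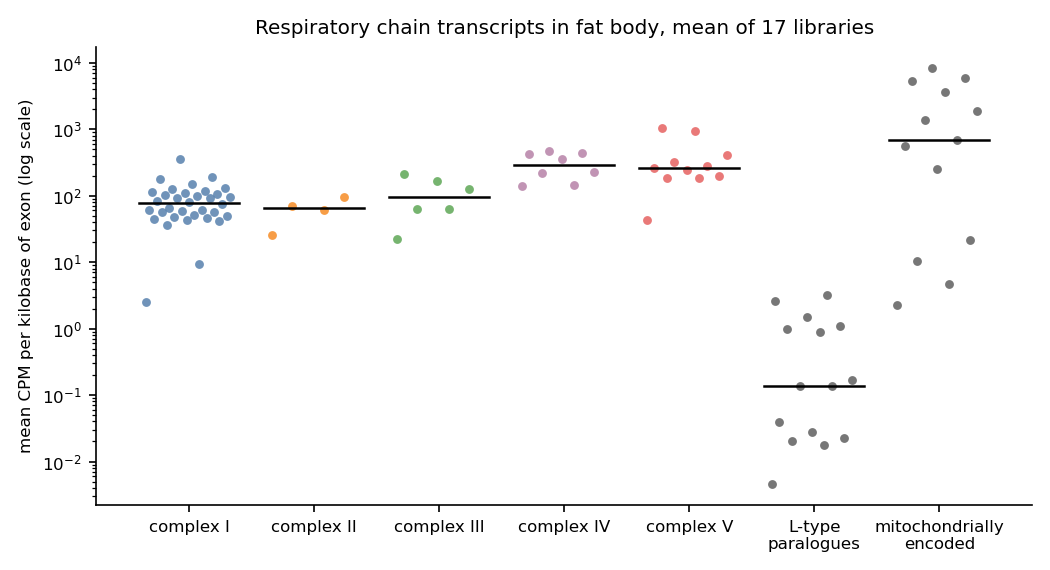
Mean CPM per kilobase of exon over 17 libraries on a log scale. Each point is 1 gene, grouped as core subunits of complexes I to V, the 15 L-type paralogues and 13 mitochondrially encoded subunits, and black bars are medians. The L-type genes lie at or below 3.22 CPM per kilobase, under every core subunit outside complex I.

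The L-type paralogues were close to absent. The highest were COX7CL at 3.22, COX6AL at 2.64, UQCR-11L at 1.51 and COX6AL2 at 1.11 CPM per kilobase, and the last shares 67.0% of its exon length with Ir75d and Prp6. COX7AL2 followed at 0.981 and COX5BL at 0.874 CPM per kilobase, where COX5BL lies wholly within Trmt6. The other 9 ran from 0.168 for ATPsynepsilonL down to 0.00456 CPM per kilobase for ND-51L2, with UQCR-6.4L, COX7AL, COX4L, ATPsynbetaL, ND-51L1 and SdhBL between them. Of 17 listed testis markers, 10 are in the table and 2 passed the filter; the 10 summed to 8.48 to 86.0 CPM.

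Mitochondrially encoded transcripts were far more abundant. Per kilobase, mt:CoIII stood at 8394 CPM and mt:CoI at 5957 CPM, both subunits of complex IV, and mt:Cyt-b of complex III at 5237 CPM. At the other end mt:ND4L stood at 2.24 CPM and mt:ND6 at 4.74 CPM per kilobase. Mitochondrial transcripts differ in how much poly(A) tail they carry, and these libraries were selected on poly(A).

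Most core subunits moved as a block from library to library. The median Pearson r of a subunit with the other core subunits over the 17 libraries was 0.86 at rank 32 of 63 (ND-PDSW). It was lowest for SdhA (−0.06), ND-75 (0.03), UQCR-C2 (0.10), ND-39 (0.12), UQCR-C1 (0.15) and SdhB (0.30). These r values were taken across groups and so include the differences between groups. A library's deviation was taken as the median over core subunits of log2 CPM minus the gene's mean over the 17 libraries. In S106 control the 5 deviations were −0.28, 0.18, 0.31, 0.18 and −0.59, and in S106 switch the 4 were −0.31, 0.34, −0.00 and −0.77. In S106>UASfoxo control they were −0.44, 0.68, 0.30 and 0.10, and in S106>UASfoxo switch −0.08, 0.12, 0.06 and 0.39.

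The lowest libraries were thus S106 switch replicate 4 and S106 control replicate 5, and the highest S106>UASfoxo control replicate 2. In both S106 groups the libraries below −0.2 were those high in ovary markers, and in S106>UASfoxo control replicate 1 was. S106>UASfoxo control replicate 4 and switch replicate 4 are also high in ovary markers and stood at 0.10 and 0.39. The part of ovarian RNA in these deviations was not tested. In bulk tissue, fewer cells of a type and less RNA per cell cannot be told apart.

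Complex II stood apart from the block in single libraries. In S106>UASfoxo control replicate 4 its median deviation was −0.84, while complexes I, III, IV and V stood at 0.11, 0.33, 0.26 and 0.03. The TCA cycle list was at −1.79 in that library, its lowest value. The complex II median rests on few genes. SdhA and SdhB were the lowest of their group in that library and SdhC was not. ND-75, ND-39 and UQCR-C2 of complexes I and III were also lowest there, so the fall was not particular to complex II.

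**Figure D2:**
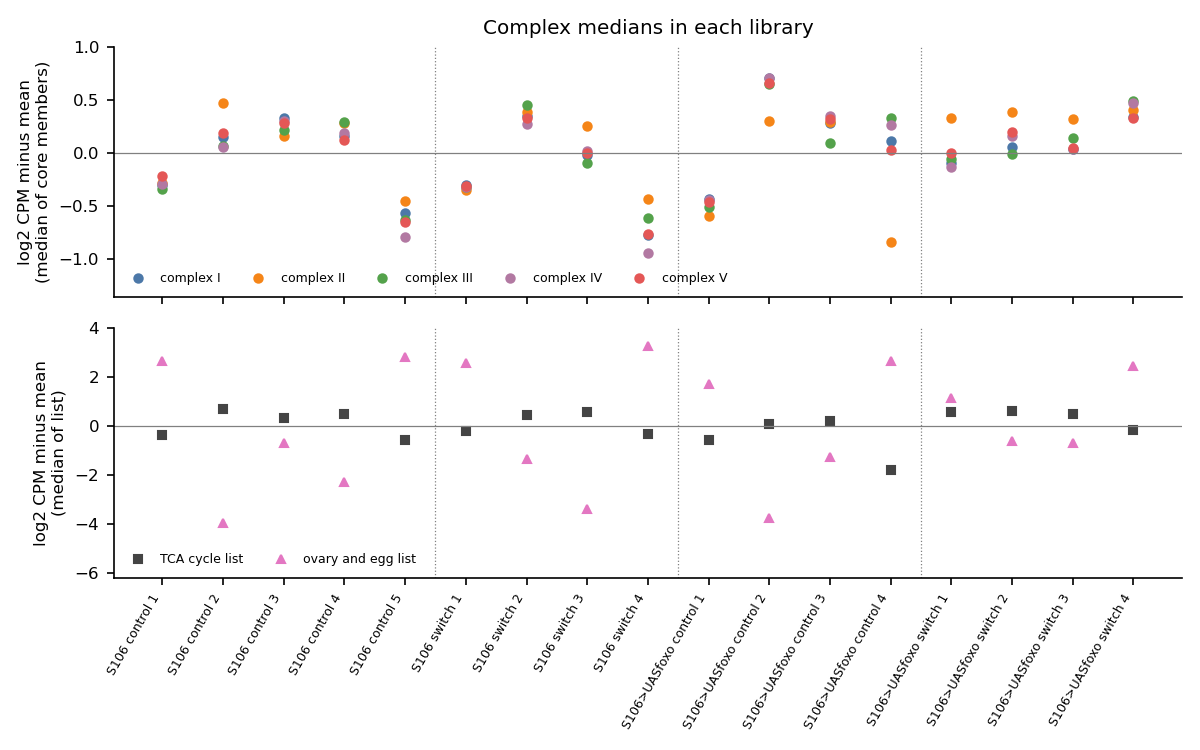
Upper panel, median deviation in log2 CPM of the core subunits of each complex in each of the 17 libraries. Lower panel, the same for the TCA cycle and the ovary and egg lists. Dotted lines part the groups. Complexes I, III, IV and V lie close together in most libraries, and complex II falls to −0.84 in S106>UASfoxo control replicate 4.

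In S106>UASfoxo flies, 6 core subunits were about 2 to 4 times as high after the past induction as in controls, while 45 of the 63 had log2 fold changes below 0, most of them small. The 6 were the iron-sulphur subunit ND-75 and the accessory subunit ND-39 of complex I, the succinate-oxidising pair SdhA and SdhB of complex II, and the large core proteins UQCR-C1 and UQCR-C2 of complex III. None of them passed the threshold. They are the 6 core subunits with an unadjusted p under 0.05, all higher, and were picked out after their values were seen. They make up 9.52% of the 63, against 10.1% of all genes higher at that p. The share below 0 was 71.4%, against 51.5% of all genes.

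ND-75 (FBgn0017566, chromosome X, 8248651 to 8251687 in BDGP6) is the homologue of human NDUFS1, which carries iron-sulphur clusters of the electron input arm. It stood at 28.7, 37.3, 54.6 and 11.5 CPM in S106>UASfoxo control and at 205, 127, 158 and 38.7 CPM in the switch group. Switch replicate 4 lay within the control range and the other 3 libraries above all controls. The log2 fold change was 2.00 ± 0.62 (SE, 4 against 4 libraries; unadjusted p 0.00542, edgeR adjusted p 0.274).

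ND-39 (FBgn0037001, chromosome 3L, 20492082 to 20497084) is the homologue of NDUFA9, at the junction of the arms of complex I. Its values were 36.5, 55.1, 59.9 and 11.6 CPM in control and 148, 143, 139 and 47.0 CPM in switch, with the same library low. The log2 fold change was 1.55 ± 0.55 (edgeR adjusted p 0.278).

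SdhA (FBgn0261439, chromosome 2R, 19391863 to 19395971) stood at 40.0, 41.9, 43.2 and 19.6 CPM in control and at 117, 91.2, 92.5 and 40.5 CPM in switch. The groups overlapped in switch replicate 4 alone. The log2 fold change was 1.24 ± 0.35 (edgeR adjusted p 0.273).

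SdhB (FBgn0014028, chromosome 2R, 6807626 to 6809172), the iron-sulphur partner of SdhA, stood at 33.2, 75.7, 93.9 and 18.7 CPM in control and at 120, 116, 105.6 and 108 CPM in switch. It was the core subunit whose groups did not overlap, as 2.26% of all genes tested did in this direction. Its log2 fold change was 1.02 ± 0.41 (edgeR adjusted p 0.320).

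The core proteins of complex III face the matrix and are related to mitochondrial processing peptidases. UQCR-C1 (FBgn0038271, chromosome 3R, 14890231 to 14892387) stood at 71.0, 135, 141 and 29.0 CPM in control and at 366, 298, 306 and 139 CPM in switch. UQCR-C2 (FBgn0250814, chromosome 3L, 16584124 to 16586111) stood at 33.9, 44.5, 69.1 and 11.8 CPM in control and at 216, 160, 197 and 50.5 CPM in switch. For both, switch replicate 4 lay within the control range and the other 3 switch libraries above it. The log2 fold changes were 1.56 ± 0.52 and 1.97 ± 0.64 (edgeR adjusted p 0.274 for each).

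ND-42 and ND-51 of complex I had smaller log2 fold changes. Their groups overlapped, as did those of the subunits above other than SdhB. ND-42, the homologue of NDUFA10, stood at 71.0, 141, 103 and 44.4 CPM in control and at 110, 116, 115 and 86.0 CPM in switch. Its log2 fold change was 0.25 ± 0.31 (edgeR adjusted p 0.788). ND-51, the homologue of NDUFV1, which takes electrons from NADH, stood at 94.5, 169, 197 and 41.9 CPM in control and at 208, 216, 206 and 139 CPM in switch. Switch replicate 4 alone lay within the control range, and the log2 fold change was 0.61 ± 0.41 (edgeR adjusted p 0.551).

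The anchors of complex II, which bind heme and quinone, stayed apart from SdhA and SdhB. SdhC stood at 57.0, 147, 116 and 87.1 CPM in control and at 76.3, 97.7, 93.4 and 108 CPM in switch, and its log2 fold change was −0.12. SdhD had a log2 fold change of −0.07. In complex III the small subunits UQCR-Q, UQCR-14, UQCR-6.4 and UQCR-11 had log2 fold changes of −0.14, −0.28, −0.28 and −0.46.

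Complexes IV and V held no core subunit with an unadjusted p under 0.05 here. Over the 8 of complex IV the log2 fold changes ran from −0.31 for COX7C to 0.04 for COX4. Over the 11 of complex V they ran from −0.31 for ATPsynG to 0.54 ± 0.37 for ATPsyngamma, the rotor shaft (edgeR adjusted p 0.569). ATPsynbeta stood at 1904, 3648, 2671 and 2294 CPM in control and at 2097, 2426, 2267 and 2460 CPM in switch, a log2 fold change of −0.19 ± 0.27.

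Read over all core subunits, the call counts were those of the whole table. The quasi-likelihood test of edgeR at an adjusted p of 0.05 called none of the 67 tested members, as it called 0.0% of all genes. DESeq2 and limma-voom also called none of the members, while of all 9819 genes DESeq2 called 61 and limma-voom 0. The 6 core subunits higher at an unadjusted p under 0.05 are 9.52% of 63, against 10.1% of all genes, and 0 were lower, against 2.82%. Log2 fold changes were below 0 for 45 of 63, or 71.4%, against 51.5% of all genes, with a median of −0.14 against −0.02. Since most subunits move together from library to library, their signs are not independent. Without S106>UASfoxo control replicate 2, the library highest for the chain, the median was 0.05 and 21 were below 0. The sign of the median also turned with a length trend removed and with an ovary covariate.

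**Figure D3:**
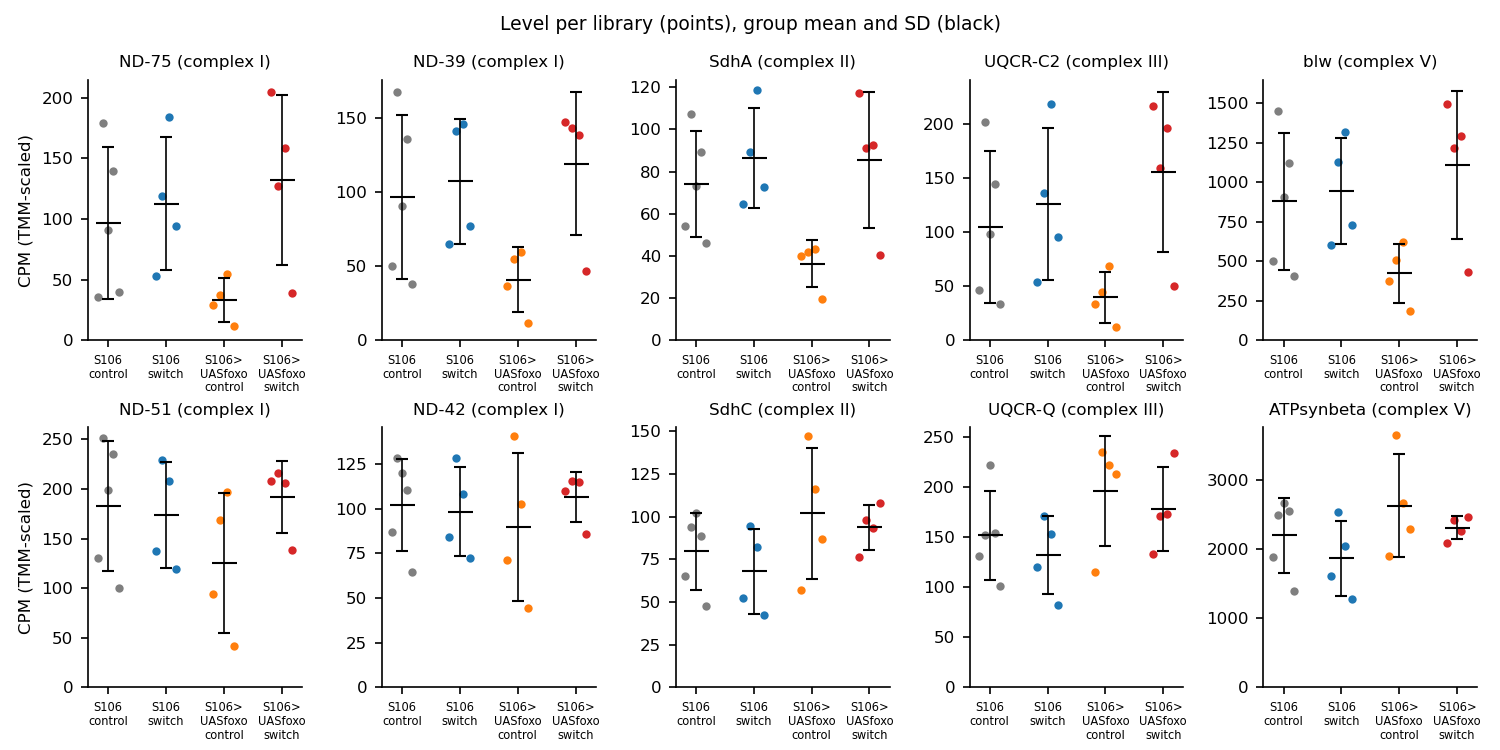
TMM-scaled CPM in each library for 10 subunits, with the group mean and SD in black. Upper row, ND-75, ND-39, SdhA, UQCR-C2 and blw, whose group means are lowest in S106>UASfoxo control. These libraries overlap with S106>UASfoxo switch replicate 4. Lower row, ND-51, ND-42, SdhC, UQCR-Q and ATPsynbeta of the same complexes, whose 4 groups overlap. The group mean of ND-42 is also lowest in S106>UASfoxo control, at 89.7 CPM. ND-51 goes in the directions of the upper row as well, with smaller log2 fold changes. They were 0.61 for S106>UASfoxo switch against control and −0.55 for S106>UASfoxo control against S106 control.

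**Figure D4:**
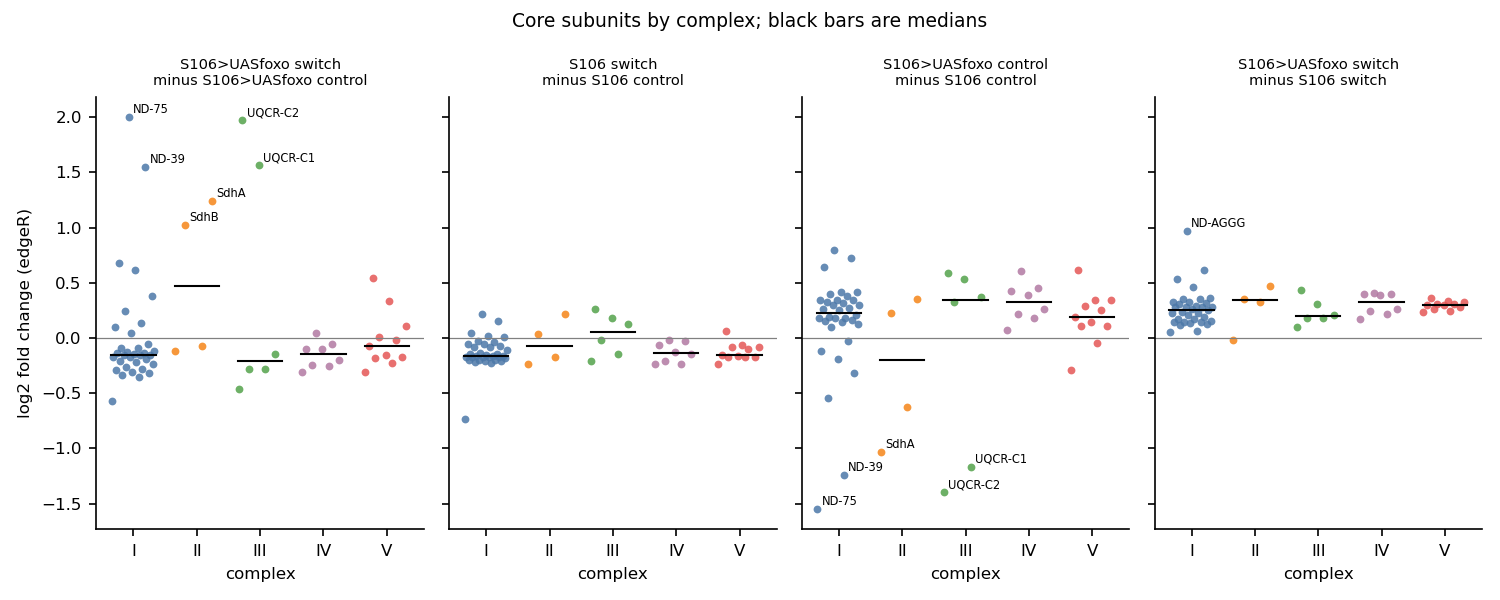
Log2 fold changes (edgeR) of the 63 core subunits by complex in the 4 group comparisons. Each point is 1 gene and black bars are medians; the panels of the S106>UASfoxo switch and of the control groups share the S106>UASfoxo control libraries. ND-75, ND-39, SdhA, UQCR-C1 and UQCR-C2 stand away from the rest of their complexes in those panels.

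Ratios of counts within a library, which no scaling between libraries can move, restate the split between the subunits picked out above and others of their complexes. The numerators were picked after their values were seen, so the ratios are no separate support for it. ND-39 over ND-42, both of complex I, was 0.515, 0.392, 0.583 and 0.262 in S106>UASfoxo control and 1.35, 1.24, 1.21 and 0.546 in switch. In S106 control it was 0.574, 1.31, 0.756, 1.23 and 0.590, and in S106 switch 0.768, 1.11, 1.35 and 1.06. The S106>UASfoxo control libraries were lowest, except that replicate 3 of that group was above S106 control replicate 1 and above switch replicate 4.

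SdhA over SdhC, both of complex II, was 0.703, 0.285, 0.372 and 0.225 in S106>UASfoxo control and 1.54, 0.933, 0.991 and 0.375 in switch. It was 0.716 to 1.14 in S106 control and 0.944 to 1.73 in S106 switch, all above the S106>UASfoxo control libraries. UQCR-C2 over UQCR-Q was 0.0555 to 0.311 in S106>UASfoxo control, against 0.216 to 1.62 in switch, 0.330 to 1.33 in S106 control and 0.446 to 1.43 in S106 switch. S106>UASfoxo control replicate 4 was the lowest library for each of these ratios.

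Log2 fold change moved with coding length, in the chain and in the whole table. Over the 63 core subunits the Spearman rho between coding length and log2 fold change was 0.659, and between exon length and log2 fold change 0.481; over all genes with a known length it was 0.397 (9140 genes) and 0.377 (9739 genes). Genes are not independent replicates, so these are descriptions. Some genes of like exon length differed. ND-39 and ND-42 have exon lengths of 1616 and 1618 bases and coding lengths of 1248 and 1221 bases. Their log2 fold changes were 1.55 and 0.25. UQCR-11 has an exon length of 1613 bases but a coding length of 255 bases, and a log2 fold change of −0.46. ATPsynbeta, with a coding length of 1533 bases, lay below 0, and UQCR-C1 and UQCR-C2, of 1410 and 1320 bases, well above. The exon lengths of these genes are 2386, 1632 and 1686 bases. ND-39, UQCR-C1 and UQCR-C2 were picked out after their values were seen, so these genes are examples only. The part of length in these values was not tested.

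With a smooth trend on exon length over all genes removed, the values were 1.88 for ND-75, 1.61 for ND-39, 1.10 for SdhA, 1.19 for SdhB, 1.62 for UQCR-C1 and 2.02 for UQCR-C2. The core median turned from −0.14 to 0.09. The trend was on exon length alone, and none on coding length was removed.

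**Figure D5:**
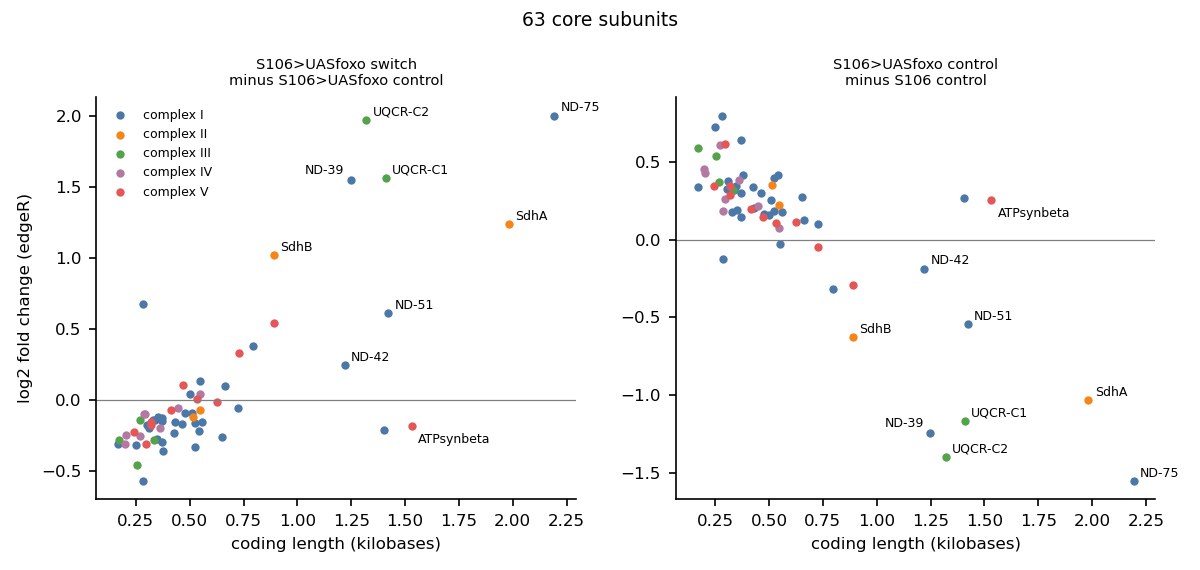
Log2 fold change (edgeR) against coding length in kilobases for the 63 core subunits, coloured by complex, in the S106>UASfoxo switch comparison (left) and the comparison of the control groups (right), which share the S106>UASfoxo control libraries. ATPsynbeta lies apart from UQCR-C1 and UQCR-C2 at a similar coding length.

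Ovary markers differed between libraries within groups, and both fits that take them into account were chosen after the data were seen. In the 9 libraries with little ovarian RNA (2 against 2 for this comparison), the log2 fold changes were 1.65 ± 0.38 for ND-75, 1.31 ± 0.28 for ND-39, 1.13 ± 0.24 for SdhA, 1.15 ± 0.26 for UQCR-C1, 1.67 ± 0.41 for UQCR-C2 and 0.40 ± 0.22 for SdhB. None had an edgeR adjusted p below 0.240. The rest of the chain stood lower there, with a core median of −0.41 and 54 of 63 below 0. At an unadjusted p under 0.05, 5 core subunits were higher (7.94%, against 11.2% of all genes) and 22 lower (34.9%, against 4.17%), 14 of them in complex I, 1 in II, 0 in III, 3 in IV and 4 in V.

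With the mean of the ovary and egg markers as a covariate in all 17 libraries, edgeR called 1156 genes and 9 of the 67 members. The core median was 0.02 in that fit, with 33 of 63 above 0 and 30 below. The 8 members called higher were ND-75, ND-39, ND-51, SdhA, SdhB, UQCR-C1, UQCR-C2 and ATPsyngamma. They are 11.9% of the members tested, against 9.08% of all genes. COX7CL was called lower, against 2.69% of all genes. ND-75 had a log2 fold change of 2.28 ± 0.41 (edgeR adjusted p 0.0150) and SdhB one of 1.36 ± 0.29 (edgeR adjusted p 0.0173) in that fit.

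Leaving out S106>UASfoxo control replicate 4, the library with the lowest values, took ND-75 to 1.72 ± 0.64, SdhA to 1.03 ± 0.35 and SdhB to 0.73 ± 0.36 in log2 fold change, where SdhB had an unadjusted p of 0.0602. Leaving out switch replicate 4 took ND-75 to 2.31 ± 0.60 and SdhA to 1.47 ± 0.32. Over the 9 gut enterocyte markers that passed the filter the median log2 fold change was 2.79, with 6 at an unadjusted p under 0.05, and the 12 markers in the table summed to 14.6 to 54.3 CPM in control and 22.3 to 641 CPM in switch. All 9 hemocyte markers were above 0, 3 of them at an unadjusted p under 0.05, with a median of 0.44 and sums of 175.0 to 441 CPM in control and 321 to 1101 CPM in switch. All 6 oenocyte markers were above 0 as well, 2 of them at an unadjusted p under 0.05, with a median of 0.49 and sums of 20235 to 61372 CPM in control and 32811 to 80136 CPM in switch. The median was 0.37 over the 10 fat body markers themselves and 0.15 over the 17 muscle markers. The part of these cells in the 6 subunits was not tested.

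In S106 flies, which carry no UASfoxo, 52 of the 63 core subunits had log2 fold changes below 0 after the same feeding. None of the 6 subunits picked out above had an unadjusted p under 0.05. The median log2 fold change over core subunits was −0.15 against 0.01 for all genes, and the share below 0 was 82.5%, against 48.4%. Without S106 switch replicate 4 the median was 0.02 with 28 below 0. Of 80 cytosolic ribosomal proteins 70 were below 0 in the main fit (median −0.11), and of 72 mitochondrial ribosomal proteins 28 were (median 0.04). No core subunit had an unadjusted p under 0.05, against 0.693% of all genes. None of the tested members passed the adjusted threshold by edgeR, DESeq2 or limma-voom, as 0.0% of all genes did by edgeR. Of all 9819 genes DESeq2 called 1 and limma-voom 0.

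ND-75 stood at 35.8, 179, 90.7, 139 and 39.3 CPM in S106 control and at 52.7, 119, 184 and 94.4 CPM in S106 switch. The groups overlapped and the log2 fold change was 0.22 ± 0.56. UQCR-C2 had one of 0.26 ± 0.59 and SdhA one of 0.22 ± 0.33. These 3 were the highest of complexes I, III and II, as in S106>UASfoxo flies, with smaller values. The subunit with the smallest p was ND-AGGG, a small accessory subunit of complex I, at −0.74 ± 0.36 (unadjusted p 0.0549, edgeR adjusted p 1.00). Marker lists moved as well. All 17 muscle markers were below 0, with a median of −0.35. So were 8 of 9 gut enterocyte markers, which summed to 15.9 to 852 CPM in S106 control and 39.5 to 105 CPM in S106 switch. Of the 10 fat body markers 8 were also below 0, with a median of −0.15. Of the 16 ovary and egg markers 15 were above 0, with a median of 0.62. The muscle markers summed to 2436 to 5658 CPM in S106 control and 1774 to 4994 CPM in S106 switch. The part of these cells in the values of the chain was not tested.

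Mitochondrially encoded subunits were lower in S106 switch. Of 13, all had log2 fold changes below 0, against 48.4% of all genes, with a median of −0.93. The median deviation of this list was 1.28 in S106 control replicate 4, against −0.14, −0.21, 0.18 and −0.02 in the other S106 controls. In S106 switch it was −0.48, −0.09, −0.49 and −1.21. The part of that control library in the median fold change was not tested. An unadjusted p under 0.05 was found for 5 (38.5%, against 0.509% of all genes in this direction), namely mt:ND1, mt:ND3, mt:ND4, mt:ND5 and mt:ATPase8. Mt:ND5 of complex I stood at 608, 991, 763, 3061 and 797 CPM in S106 control and at 466, 769, 399 and 394 CPM in S106 switch, where replicate 4 of the control group was far above all others and the groups overlapped. Its log2 fold change was −1.29 ± 0.46 (edgeR adjusted p 1.00).

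The difference between the switch effects of the genotypes was tested directly. It was largest for ND-75, at 1.78 ± 0.83 on the log2 scale (unadjusted p 0.0485, edgeR adjusted p 0.950), followed by UQCR-C2 at 1.70 ± 0.87, ND-39 at 1.39, UQCR-C1 at 1.38 and SdhA at 1.02 ± 0.48. ND-75 was the core subunit with an unadjusted p under 0.05, or 1.59% of 63 against 1.88% of all genes, and no member passed the adjusted threshold by edgeR, DESeq2 or limma-voom, as 0.0% of all genes did by edgeR. The core median was 0.05, with 24 of 63, or 38.1%, below 0 against 47.1% of all genes. Its sign was not stable: the median was −0.31 with 54 below 0 without the libraries high in ovary markers, and 0.24 with 11 below 0 with the replicate block.

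Without induction, the same 6 subunits had lower values in S106>UASfoxo than in S106 flies. Of the 63 core subunits, 50 had log2 fold changes above 0. This comparison shares the S106>UASfoxo control libraries with the switch comparison, so its values are not independent of those above. The log2 fold changes were −1.55 ± 0.59 for ND-75, −1.24 ± 0.52 for ND-39, −1.03 ± 0.34 for SdhA, −0.63 for SdhB, −1.17 ± 0.49 for UQCR-C1 and −1.40 ± 0.61 for UQCR-C2. The smallest edgeR adjusted p among core subunits was 0.392. Several marker lists were lower too. All 9 gut enterocyte markers were below 0 (median −2.43, 4 at an unadjusted p under 0.05). So were 8 of 9 hemocyte markers (median −0.34, 3 at an unadjusted p under 0.05) and all 6 oenocyte markers (median −0.43). Of the 10 fat body markers 8 were below 0 (median −0.23, 2 at an unadjusted p under 0.05). Of the 17 muscle markers 10 were below 0, and of the 16 ovary and egg markers 8. The gut enterocyte markers summed to 15.9 to 852 CPM in S106 control and 14.6 to 54.3 CPM in S106>UASfoxo control. The part of these cells in the 6 subunits was not tested.

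SdhA stood at 54.1, 107, 73.1, 89.3 and 46.0 CPM in S106 control, all above the 4 S106>UASfoxo control libraries. It was the core subunit whose groups did not overlap, as 3.13% of all genes were without overlap in this direction. UQCR-C1 stood at 104, 361, 213, 273 and 104 CPM in S106 control, which overlaps with S106>UASfoxo control.

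Among the small subunits, ND-AGGG had the highest log2 fold change of complex I, at 0.80 ± 0.34. ND-MLRQ stood at 130, 172, 196, 188 and 125 CPM in S106 control and at 134, 331, 273 and 333 CPM in S106>UASfoxo control (log2 fold change 0.72 ± 0.33). ND-MWFE and UQCR-6.4 had values of 0.64 ± 0.29 and 0.59 ± 0.26, and ATPsynG and COX7B at 0.61 ± 0.32 and 0.61 ± 0.31. The groups overlapped for each of these. All 8 core subunits of complex IV had log2 fold changes above 0, from 0.07 for COX4 to 0.61 for COX7B.

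At an unadjusted p under 0.05, 5 core subunits were lower (7.94%, against 8.83% of all genes) and 4 higher (6.35%, against 2.2%). No core subunit passed the adjusted threshold, which 0.0407% of all genes did. Log2 fold changes were below 0 for 13 of 63, or 20.6%, against 51.5% of all genes, with a median of 0.25. Without S106>UASfoxo control replicate 2 the median was 0.05. In the main fit 68 of 80 cytosolic ribosomal proteins (median 0.20) and 65 of 72 mitochondrial ribosomal proteins (median 0.34) were above 0 as well. The Spearman rho with coding length was −0.740 over the core subunits and −0.467 over all genes. With the exon length trend removed the core median was 0.01, and the small subunits came to 0.53 for ND-AGGG, 0.27 for UQCR-6.4, 0.22 for COX7B and 0.36 for ATPsynG. ND-75 came to −1.36, ND-39 to −1.24, SdhA to −0.83, SdhB to −0.73, UQCR-C1 to −1.16 and UQCR-C2 to −1.38.

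Runs of consecutive library numbers in the labels paired these control groups. With that block 6 core subunits were lower at an unadjusted p under 0.05 and 1 higher, in place of 5 and 4. Shares over all genes were not taken with the block or with libraries left out. The counts in this paragraph therefore cannot be set against the whole table. The 5 lower log2 fold changes kept their sign with the block, at −1.33 ± 0.31 for ND-75, −1.15 ± 0.25 for ND-39, −0.95 ± 0.19 for SdhA, −1.10 ± 0.24 for UQCR-C1 and −1.17 ± 0.30 for UQCR-C2, with edgeR adjusted p values of 0.0883 or more. The count of 9 core subunits at an unadjusted p under 0.05 rested on single libraries: it was 1 without S106>UASfoxo control replicate 4, 4 without replicate 2 and 14 without replicate 1 of that group. It was 2 without S106 control replicate 2 and 5 without replicate 1 or replicate 4 of that group.

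Between the genotypes after past feeding, nearly all core subunits stood slightly higher in S106>UASfoxo flies. The median log2 fold change was 0.28, against −0.03 for all genes, and 1 of 63 (SdhA at −0.01 ± 0.35), or 1.59%, was below 0 against 53.8%. ND-75 had a log2 fold change of 0.23 and UQCR-C2 one of 0.31. This shift was not particular to the chain. Of 80 cytosolic ribosomal proteins 79 were above 0, with a median of 0.25, and so were all 14 TCA cycle genes, with a median of 0.26. Of 72 mitochondrial ribosomal proteins 35 were above 0. Of the muscle markers 16 of 17 were above 0 as well, with a median of 0.39, and so were all 9 hemocyte and all 6 oenocyte markers. Of the 10 fat body markers 8 were above 0 (median 0.19). Of the 16 ovary and egg markers 13 were below 0 (median −0.53). The part of these cells was not tested. In the 9 libraries low in ovary markers the median was −0.07 and 49 of 63, or 77.8%, were below 0, against 49.7% of all genes.

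ND-AGGG alone had an unadjusted p under 0.05, against 1.57% of all genes. It stood at 2.88, 5.30, 4.10 and 2.77 CPM in S106 switch and at 8.03, 4.76, 6.79 and 9.68 CPM in S106>UASfoxo switch. The groups overlapped in 1 library, and the log2 fold change was 0.97 ± 0.37 (edgeR adjusted p 0.978). No member passed the adjusted threshold, which 0.0509% of all genes did.

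Among the L-type paralogues, COX7CL stood out in S106>UASfoxo control. This gene (FBgn0265342, chromosome 2R, 10050348 to 10050874) is a copy of the small complex IV subunit COX7C. It stood at 2.24, 2.58, 1.94 and 3.07 CPM in S106>UASfoxo control, above every library of the other groups. S106 control stood at 0.656, 0.882, 1.23, 0.894 and 1.06 CPM, S106 switch at 0.564, 1.22, 0.964 and 0.693 CPM, and S106>UASfoxo switch at 1.37, 1.11, 0.970 and 1.03 CPM.

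These levels rest on few reads, 19 to 28 per library in S106>UASfoxo control and 7 to 21 in the other libraries. Between the control groups the log2 fold change of COX7CL was 1.38 ± 0.30 (unadjusted p 0.000315, edgeR adjusted p 0.392), and DESeq2 called it at an adjusted p of 0.0345. Between S106>UASfoxo switch and control it was −1.12 ± 0.32 (edgeR adjusted p 0.273), with the same control libraries. In S106 flies it was −0.15 ± 0.31, and the difference of the switch effects was −0.97 ± 0.45 (unadjusted p 0.0466).

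COX7AL2 stood at 0.677, 0.544, 0.603 and 0.0769 CPM in S106 switch and at 1.03, 0.634, 1.33 and 1.76 CPM in S106>UASfoxo switch, where 1 library overlapped the other group. The log2 fold change was 1.31 ± 0.59 (unadjusted p 0.0417, edgeR adjusted p 0.978).

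Subunits of the chain outside the symbol rule showed the same split in the S106>UASfoxo switch comparison. Blw, the alpha subunit that forms the catalytic head of the ATP synthase with ATPsynbeta, stood at 375, 505, 622 and 186 CPM in control and at 1495, 1219, 1292 and 430 CPM in switch. Switch replicate 4 lay within the control range, and the log2 fold change was 1.39 ± 0.48 (edgeR adjusted p 0.274). Within a library, blw over ATPsynbeta was 0.197, 0.138, 0.233 and 0.0811 in S106>UASfoxo control and 0.713, 0.502, 0.570 and 0.175 in switch, and 0.266 or more in every S106 library.

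The electron-carrying subunits of complex III went with UQCR-C1 and UQCR-C2. Cyt-c1 stood at 95.6, 150, 184 and 50.1 CPM in control and at 273, 274, 267 and 175 CPM in switch (log2 fold change 1.04 ± 0.40, edgeR adjusted p 0.296). RFeSP, the Rieske iron-sulphur protein, stood at 46.5, 98.5, 108 and 24.2 CPM in control and at 179, 171, 162 and 103 CPM in switch (log2 fold change 1.15 ± 0.49, edgeR adjusted p 0.346). Both groups overlapped in switch replicate 4. Log2 fold changes were −0.08 for NP15.6 of complex I, −0.34 for ox of complex III, −0.13 for levy and −0.24 for cype of complex IV, −0.29 for sun of complex V and −0.30 for the electron carrier Cyt-c-p.

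The TCA cycle enzymes, which feed NADH and succinate to the chain, stood higher as well. Of 18 listed, 14 passed the filter, and 13 had log2 fold changes above 0 (92.9%, against 48.5% of all genes) with a median of 0.72. An unadjusted p under 0.05 was found for 7 of the 14 (against 10.1% of all genes in this direction), and none passed the adjusted threshold. Examples are Ogdh at 1.21 ± 0.49, Mdh2 at 1.13 ± 0.50 and the citrate synthase kdn at 1.10 ± 0.51. Between the control groups, which share libraries with that comparison, the median was −0.59, and in S106 flies −0.06.

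Proteins that make or build the chain did not stand higher as lists. The 72 mitochondrial ribosomal proteins, which translate the mitochondrially encoded subunits, stood at −0.36 in median log2 fold change, with 65 below 0 (90.3%, against 51.5% of all genes) and 4 lower at an unadjusted p under 0.05 (5.56%, against 2.82%). The 8 assembly factors that passed the filter had a median of −0.42, with 7 below 0. The 13 mitochondrially encoded subunits had one of −0.29 and the 12 regulators of mitochondrial genes one of −0.06. The 80 cytosolic ribosomal proteins had one of −0.09, with 55 below 0. Among 8 carriers and porins the median was 0.24, led by the phosphate carrier Mpcp1 at 1.43 ± 0.51 (edgeR adjusted p 0.278).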

How the data were processed

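Whole-number read counts per gene were deposited by the authors for the fat body libraries; the gut table was not used here. FastQC, HISAT2, SAMtools, featureCounts and DESeq2 are named, with no versions, per the submitters' processing notes. RNA was extracted with Trizol and chloroform, selected on poly(A) and made into libraries with a directional kit and 16 PCR cycles, per the labels' protocols. Neither build nor annotation, strand setting or handling of molecular barcodes is given in the sources used here, so overlapping genes are reported as uncertain. Symbols came from a FlyBase identifier table. Exon lengths, coding lengths and coordinates came from the Ensembl annotation of BDGP6, which may not be the build the authors used.

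Counts were tested with edgeR 4.0.16 in R 4.3.3 (robust quasi-likelihood, TMM scaling, filterByExpr, 4 group means over 17 libraries), with Benjamini-Hochberg adjustment over 9819 genes and a threshold of 0.05. These genes hold 99.9% of counts, and the common biological coefficient of variation was 0.510. Values in CPM are TMM-scaled, and errors are SE unless named. Deviations between libraries are on the log2 CPM scale with a prior count of 2. The alternatives were DESeq2 1.42.0, limma-voom from limma 3.58.1, RLE size factors, no filter, the compared groups alone, blocks, removal of a length trend or of the median, and leaving out each library. The code was tested on simulated data.

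The numbers in the titles did not pair the libraries. Runs of consecutive library numbers in the labels paired the control groups, where deviations of same-run libraries correlated at 0.406 to 0.737, and no other comparison. The members and lists were chosen with earlier results of these data known. Named genes are a fixed set per complex plus, per complex, those of the highest and lowest level, the smallest p and the highest and lowest fold change; ND-39, ND-MLRQ and ND-MWFE, among others with an unadjusted p under 0.05, were named after their values were seen. A complex I subunit and its paralogue are counted with the others and not reported by name here.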

Additional observations from a re-analysis of the deposited data

Results flagged for a closer look

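Among 80 groups of values checked for a library far from the others of its group, 4 were past Dixon's 95% critical value, where chance flags about 1 in 20. The measure is the gap to the nearest library divided by the range of the group in log2 CPM. In S106>UASfoxo switch, replicate 4 lay below the other 3 libraries for ND-39 (0.946), Cyt-c1 (0.946) and blw (0.836). In S106>UASfoxo control, replicate 4 lay below the others for SdhA (0.904).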

How the results depend on the processing

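Of 1523 alternatives over 74 results for single genes, 55 turned the direction, in 19 results, and 13 passed the threshold where the main value did not. The 6 subunits ND-75, ND-39, SdhA, SdhB, UQCR-C1 and UQCR-C2 kept their direction in the S106>UASfoxo switch comparison under all of them. For each change listed here the cause was not tested. Except where a share of all genes is printed above, counts at an unadjusted p under 0.05 were not set against all genes. Both fits on ovary markers were chosen after seeing the data.

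In S106>UASfoxo switch against control, COX4 was −0.0036 with RLE size factors and −0.0037 with DESeq2. SdhC was 0.12 with the length trend removed. Without the 8 libraries high in ovary markers, 27 core subunits had an unadjusted p under 0.05, COX4 was −0.35 and ND-42 −0.060. With the ovary covariate, 9 members passed the threshold and 11 core subunits had an unadjusted p under 0.05, and SdhC was 0.089. The counts at an unadjusted p under 0.05 ran from 5 to 7 over libraries left out in turn, COX4 from −0.11 to 0.34, SdhC from −0.32 to 0.11 and ATPsynbeta from −0.31 to 0.014.

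In S106 switch against control, 1 core subunit had an unadjusted p under 0.05 with DESeq2, the library number block or the covariate. With the replicate block ND-75 was −0.085, UQCR-C2 −0.10 and ATPsynG −0.14, and with the library number block ATPsynG was −0.019. COX7C was 0.054 without the ovary-high libraries, 0.059 with the covariate and 0.037 with the length trend removed, and COX7CL was 0.13 without those libraries. Leaving out libraries gave 0 to 1 subunits, −0.30 to 0.27 for ATPsynG, −0.22 to 0.15 for COX7C, −0.36 to 0.017 for COX7CL, −0.13 to 0.56 for ND-75 and −0.14 to 0.64 for UQCR-C2.

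For the difference of switch effects, the count was 0 with RLE or limma-voom, 2 without a filter, 3 with DESeq2, 9 with the replicate block, 7 with the library number block, 9 without the ovary-high libraries and 7 with the covariate. Without those libraries SdhD was −0.32 and COX4 −0.24. Leaving out libraries gave counts of 0 to 5 and SdhD from −0.038 to 0.31.

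Between the control groups, DESeq2 called 1 member, COX7CL at 1.44, among 18 of all 9819 genes. The count was 5 with limma-voom and 14 without the ovary-high libraries, and 1 to 14 over libraries left out. COX4 was −0.13 with the replicate block and −0.027 with the length trend removed, and −0.22 to 0.23 over libraries left out.

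Between the switch groups, the count was 3 with the replicate block, 0 without the ovary-high libraries, 3 with the covariate and 0 to 3 over libraries left out. SdhA was 0.081 with the library number block, 0.086 with the length trend removed and 0.020 with the median removed. UQCR-11 was −0.084 with the library number block, and ND-13B −0.035 with the length trend removed. Without the ovary-high libraries ND-13B was −0.18, UQCR-11 −0.39, COX7A −0.011, COX7C −0.16, ATPsynCF6 −0.14 and COX7CL −0.075. Over libraries left out SdhA ran from −0.20 to 0.22, UQCR-11 from −0.24 to 0.30, ND-13B from −0.12 to 0.23 and COX7C from −0.0070 to 0.37.

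The core medians ran from −0.31 to 0.05 in S106>UASfoxo switch against control, −0.31 to 0.02 in S106 flies, −0.13 to 0.25 for the difference, 0.05 to 0.40 between the control groups and 0.12 to 0.45 between the switch groups over libraries left out. With the title numbers as a replicate block, 9 core subunits had an unadjusted p under 0.05 in S106>UASfoxo switch against control and no member passed the threshold; correlations of same-numbered libraries ran from −0.063 to 0.584 there. The search of promoters for motifs was not run, since no promoter sequences were used here. COX7CL and the other L-type genes are limited by counts of few reads.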
